A study of Arabidopsis thaliana with 8 samples.

Results

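The 10 loci described here encode Arabidopsis histone acetyltransferases: HAG1, HAG2 and HAG3 of the GNAT family, HAC1, HAC2, HAC5 and HAC12 of the p300/CBP family, HAF1 of the TAF1 family, and HAM1 and HAM2 of the MYST family. They were picked by locus identifier from 25686 loci listed in the deposited tables, and the unique reads of a locus's transcript models were added up. All 10 had reads in 6 of the 8 libraries, and 9 had reads in Col root and in Col after 2 weeks on SIM, where HAC2 was not listed. Each table lists the transcript models with at least 1 read, and its counts add up to the library total in its header, so an unlisted locus was taken as a count of 0.

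Total RNA was sequenced while roots regenerated shoots, in wild-type plants (Col, the Columbia accession) and in the hag1 mutant, named for HAG1. The stages were roots, root explants kept for 4 days on callus-inducing medium (CIM), explants then kept for 2 days on shoot-inducing medium (SIM), and explants kept for 2 weeks on SIM. Each genotype and stage gave 1 library, so there were 2 genotypes, 4 stages and 8 libraries. The labels name neither the hag1 allele nor the age of the plants, and seedlings of both genotypes grew on sucrose medium in long days.

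Histone acetyltransferases transfer an acetyl group from acetyl-CoA to lysines of histone tails, a mark that is found on transcribed chromatin. HAG1, the plant GCN5, is the catalytic subunit of the SAGA coactivator complex and is tethered to it by ADA2 proteins. In this culture system CIM is rich in auxin and yields callus, and SIM is rich in cytokinin and yields shoots.

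The libraries held 6.96 to 7.54 M unique reads (M, 1000000 reads) and 21336 to 22313 loci with reads. Summed reads of 5 root uptake and root hair markers were 7864 in Col roots and 3428 in hag1 roots, and 8 and 3 on CIM. The 4 markers of auxin-grown callus summed on CIM to 24420 reads in Col and 26129 in hag1. In stage order the green tissue markers summed to 1209, 183, 255 and 4341 reads in Col. In hag1 they summed to 1018, 106, 153 and 2794. LHCA1, the other gene of that list, is listed in none of the tables. Of the shoot meristem markers CLV3 is not listed either, and WUS and STM summed to 45 and 28 reads after 2 weeks on SIM.

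The targeted gene was described first. HAG1 (AT3G54610) lies on the forward strand at chr3:20213560-20217653 in the deposited coordinates. Its unique reads in Col were 171 in root, 204 on CIM, 340 after 2 days on SIM and 156 after 2 weeks. In hag1 they were 21, 8, 16 and 13 at the same stages. All 4 hag1 libraries lay below all 4 Col libraries, so the groups did not overlap. The share of all loci that separate in this way is not given here.

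Per kilobase and per 1000000 reads (RPKM), the HAG1 level in Col was 11.2, 14.3, 22.8 and 11.1 in stage order, and in hag1 it was 1.46, 0.555, 1.13 and 0.870. In Col the level was highest after 2 days on SIM and about equal in root and after 2 weeks. Scaled for library composition (TMM), the log2 change in Col from CIM to 2 days on SIM was 0.65, with an exact 95% counting interval of 0.39 to 0.91. From 2 days to 2 weeks it was -0.82 (interval -1.10 to -0.54), and from root to CIM it was 0.06 (-0.24 to 0.37). These intervals cover counting error between 2 libraries only. In RNA of whole explants, fewer cells of a type and less RNA per cell cannot be told apart.

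HAG1 fell in hag1 by 3.82 on the log2 scale (SE 0.29) over the 4 stages, with an edgeR quasi-likelihood adjusted p of 0.0239. Within stages the log2 ratio of hag1 to Col was -3.08 in root, -4.57 on CIM, -4.22 after 2 days on SIM and -3.59 after 2 weeks. The residual reads covered 32.3, 15.6, 23.7 and 25.4% of the HAG1 transcript model in hag1, against 86.6 to 91.8% in Col. The tables give no read positions, so which stretch of the model the hag1 reads came from is not known. HAG1 was lower in hag1 in each of the 4 stages, which is the check of the labels.

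HAC2 (AT1G67220), a p300/CBP-type acetyltransferase gene on the forward strand at chr1:25145587-25150558, moved the other way. Its unique reads in Col were 0 in root, 1 on CIM, 2 after 2 days on SIM and 0 after 2 weeks. In hag1 they were 16, 79, 98 and 43. Every hag1 library was above every Col library, and the hag1 levels themselves differed between stages. As for HAG1, no share of all loci is set beside this separation.

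In RPKM, HAC2 in hag1 was 0.533 in root, 2.62 on CIM, 3.33 after 2 days on SIM and 1.38 after 2 weeks. In Col it was 0.0335 on CIM and 0.0642 after 2 days on SIM. A count of 0 allows up to 3 reads, that is 0.0944 RPKM in Col root and 0.102 RPKM in Col after 2 weeks on SIM. Set against this floor of 3 reads in the Col library, the hag1 reads of HAC2 were 5.12-fold higher in root and 14.2-fold higher after 2 weeks. With the counting error of both libraries, the exact 95% lower limits of the HAC2 log2 ratio were 1.89 and 3.47. On CIM the log2 ratio was 6.40 with an exact counting interval of 3.88 to 11.72, and after 2 days on SIM it was 5.80 (3.91 to 8.87).

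Over the stages HAC2 was higher in hag1 by a fitted 6.23 on the log2 scale (SE 0.45), with an edgeR quasi-likelihood adjusted p of 0.0239. The size of that fitted change is poorly fixed, since 2 of the Col libraries held no read. HAC2 passed the filter on low counts only through the hag1 libraries, so a difference between genotypes was a condition of its being tested. Reads covered 16.2, 52.2, 58.4 and 41.8% of the HAC2 model in hag1 in stage order, and at most 2.33% in Col. The highest HAC2 level in hag1, 3.33 RPKM, lay below the lowest HAG1 level in Col, 11.1 RPKM.

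**Figure D1:**
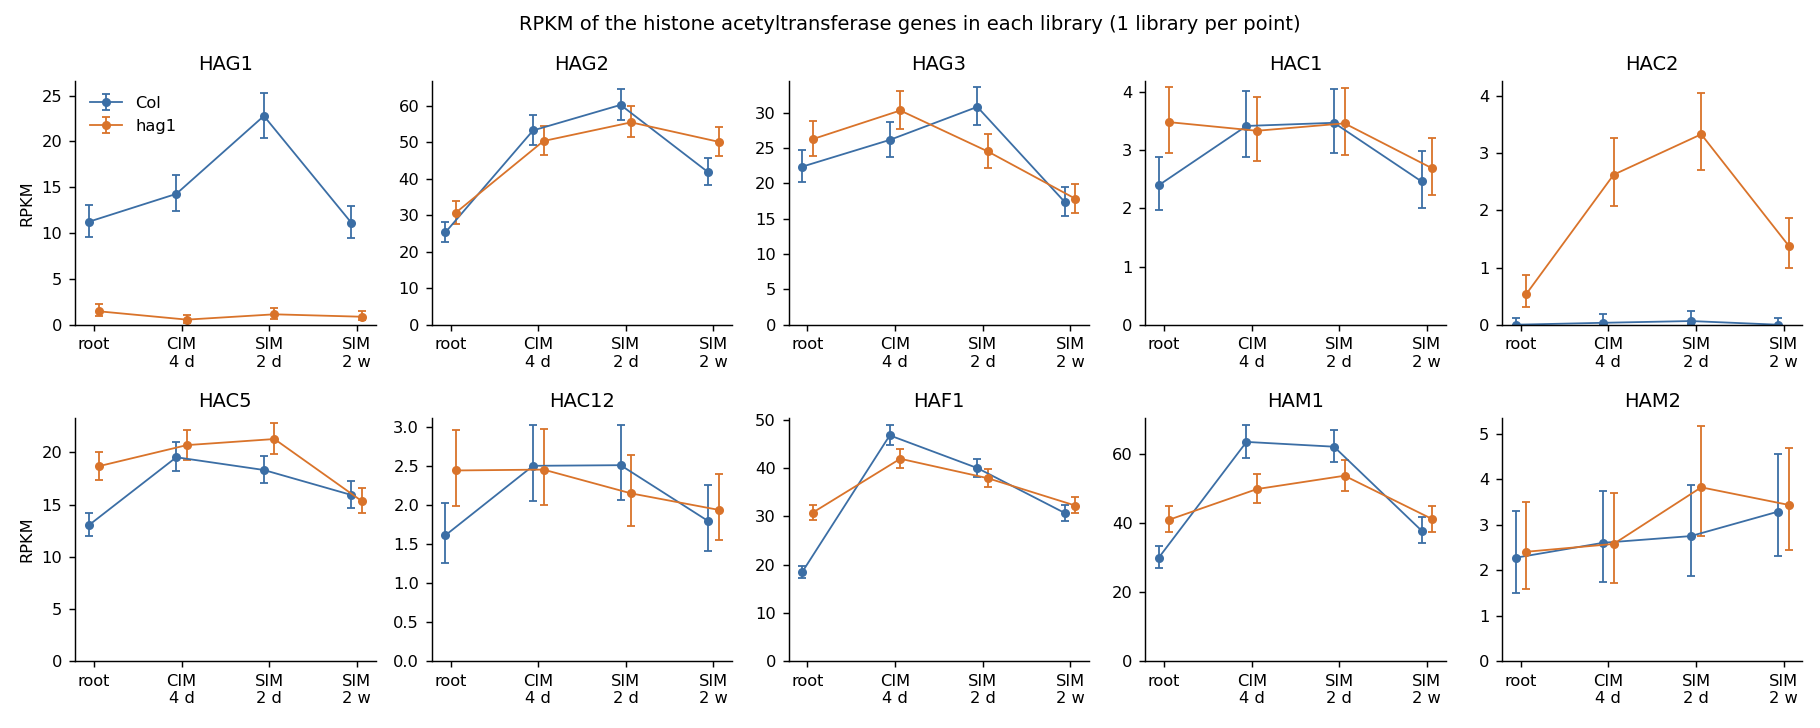
RPKM (vertical axis) of the 10 genes in roots, on CIM and on SIM (horizontal axis), with blue points for Col and orange points for hag1, 1 library per point, and exact 95% counting intervals. HAG1 stays between 0.555 and 1.46 RPKM in hag1 against 11.1 to 22.8 in Col, and HAC2 reaches 3.33 RPKM in hag1 against at most 0.0642 in Col.

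The stretch around the first coding base of HAC2 is shown because the gene went from almost no reads to 98. It is 300 bases of the TAIR10.1 reference (RefSeq), chr1:25145337-25145636, forward strand. RefSeq gives this gene a partial start, so the first base of its messenger RNA is not annotated.
HAC2 start: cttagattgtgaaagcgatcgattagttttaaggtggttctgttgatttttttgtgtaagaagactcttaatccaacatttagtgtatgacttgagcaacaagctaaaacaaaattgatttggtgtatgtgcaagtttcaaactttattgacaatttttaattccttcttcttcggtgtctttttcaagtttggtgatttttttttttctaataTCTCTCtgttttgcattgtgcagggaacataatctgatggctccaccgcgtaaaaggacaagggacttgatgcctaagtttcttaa
Capitals mark the 1 match to the GA repeat GAGAGA, on the reverse strand at position -36 from the first coding base. GAGAGA was searched on both strands and occurs in 29.2% of the 27443 windows of this length around the annotated starts of protein-coding genes. The TATA element, searched as TATAAA, was not found in this window and is in 52.1% of all windows. The same holds for the CCAAT box, which is in 51.6%, and for the telo box, searched as AAACCCTA, which is in 6.22%. The other windows were set by the annotated gene start, and that of HAC2 by its first coding base. The shares are thus from unlike regions, and an absence here cannot be read against them.

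The deposited counts hold unique reads, so how alike the members are in sequence bears on them. None of the 50-base stretches of the coding sequence of HAC2, or of any of the other members, occurs elsewhere as an unbroken stretch of the TAIR10.1 genome. Between spliced coding sequences, HAF1 shared 5 such stretches, in an identical run of 54 bases, with HAF2, an acetyltransferase gene outside the set, at 84.6% identity. HAC2 shared 53.0% identical bases with HAC1 over their aligned coding sequences, and their longest identical run was 13 bases. HAG1 shared 41.7% with HAG2 and 41.4% with HAG3, with no identical run over 14 bases. Within the set the members closest to each other were HAM1 and HAM2 at 83.8% and HAC1 and HAC12 at 82.0% identity.

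The longest identical run of each of these pairs is shown in capitals, with 12 lower-case bases on each side. It is the longest piece of coding sequence that a read could not assign to 1 gene of the pair. With its flanks, the HAC1 stretch is at chr1:29719763-29719826 (reverse strand) and the HAC12 stretch at chr1:5718706-5718769 (forward strand) of TAIR10.1. The identical run within them has 40 bases.
HAC1: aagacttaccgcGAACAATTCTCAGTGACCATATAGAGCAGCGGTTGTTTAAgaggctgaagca
HAC12: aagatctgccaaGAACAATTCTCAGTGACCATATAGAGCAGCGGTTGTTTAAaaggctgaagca
With its flanks, the HAM1 stretch is at chr5:25829100-25829161 and the HAM2 stretch at chr5:3022916-3022977, both on the reverse strand. The identical run within them has 38 bases.
HAM1: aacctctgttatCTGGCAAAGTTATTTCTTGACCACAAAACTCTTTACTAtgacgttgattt
HAM2: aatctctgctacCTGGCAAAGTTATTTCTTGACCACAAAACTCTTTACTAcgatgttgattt

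Coverage of the transcript models split the members. Reads covered 95.5 to 98.4% of the HAG2 model, 80.3 to 82.0% of HAG3, 95.3 to 97.0% of HAC5, 96.3 to 98.9% of HAF1 and 94.0 to 98.8% of HAM1. For HAC1 the range was 6.88 to 7.61%, for HAC12 9.37 to 11.4% and for HAM2 17.3 to 20.3%. The tables list 2 transcript models each for HAC1 and HAC12. Of the 50-base stretches of their coding sequences, 99.2% (HAC1), 97.5% (HAC12) and 78.6% (HAM2) also lie in another RefSeq transcript of the same locus. In HAC5 the share was 98.7% with 1 listed model and high coverage. The part of alternative transcripts in the low coverage was not tested, and the levels of HAC1, HAC12 and HAM2 rest on a small stretch of each model.

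**Figure D2:**
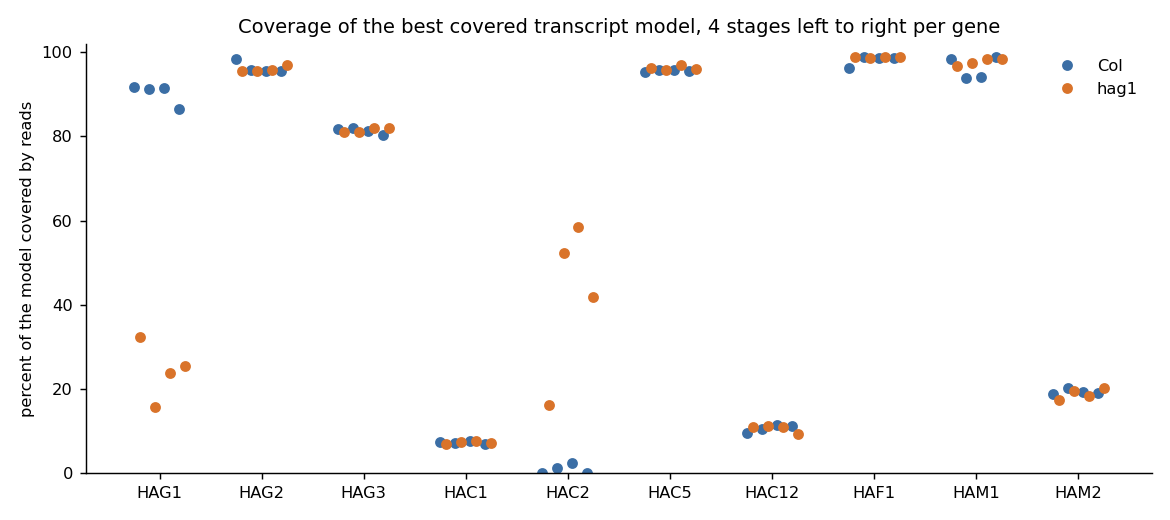
Percent of the best covered transcript model with reads (vertical axis) for the 10 genes (horizontal axis), with the 4 stages from left to right, blue for Col and orange for hag1. HAC1, HAC12 and HAM2 lie at or under 20.3% in all libraries, HAG1 lies at 15.6 to 32.3% in hag1, and HAC2 reaches 58.4% in hag1.

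Among the members with high coverage, HAM1, HAG2 and HAF1 had the highest levels in 7 of the 8 libraries, and in Col root HAG3 was above HAF1. In Col root the order was HAM1 (30.1 RPKM), HAG2 (25.4), HAG3 (22.4), HAF1 (18.5), HAC5 (13.0) and HAG1 (11.2). The exact counting intervals of HAM1 and HAG2, of HAG2 and HAG3, and of HAC5 and HAG1 overlapped there, so these neighbours could not be ordered. On CIM, HAM1 was at 63.6, HAG2 at 53.3, HAF1 at 46.7, HAG3 at 26.2, HAC5 at 19.5 and HAG1 at 14.3 RPKM. HAG1 passed HAC5 only after 2 days on SIM, at 22.8 against 18.3 RPKM. HAG1 made up 6.15 to 9.37% of the summed RPKM of the 10 members in Col and 0.271 to 0.924% in hag1, where HAC2 made up 0.337 to 1.61%. That sum includes HAC1, HAC12 and HAM2, whose RPKM rests on a small stretch of each model, so the shares are approximate.

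Over the stages 2 of the 10 members, HAG1 and HAC2, differed between hag1 and Col at an edgeR adjusted p under 0.05. Of all 18710 loci tested, 0.433% were called, 0.241% higher and 0.192% lower in hag1. HAG1 is the mutated gene, and HAC2 entered the test only through its hag1 reads, so nothing is read from this count against that share. The other 8 members had fitted log2 changes from 0.04 (HAM1) to 0.23 (HAC5), with adjusted p from 0.311 to 0.890. The median over the 10 members was 0.17 and over all loci -0.02. Leaving out 1 library gave adjusted p of 0.0493 to 0.157 for HAG1 and 0.0455 to 0.157 for HAC2. Both calls were then kept without Col root or without hag1 root, and lost without any of the other libraries, except that HAC2 kept its call without Col at 2 weeks on SIM. On log2(RPKM + 1), limma called neither, with adjusted p of 0.0628 and 0.0897. The labels do not say that libraries came from separate cultures, and stages stand in for replicates. These p-values therefore reflect no more than the spread among the 8 libraries.

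HAG2 (AT5G56740, chr5:22952796-22955664, reverse strand), a GNAT acetyltransferase related to yeast HAT1, had read counts that overlapped between the genotypes. They were 326, 643, 760 and 496 in Col and 374, 614, 661 and 633 in hag1. In RPKM these are 25.4, 53.3, 60.3 and 41.8 in Col and 30.8, 50.4, 55.5 and 50.2 in hag1. Both genotypes were lowest in root. The within-stage log2 ratio of hag1 to Col ranged from -0.02 after 2 days on SIM to 0.34 (0.17 to 0.51) after 2 weeks, the one stage where its counting interval left out 0.

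HAG3 (AT5G50320, chr5:20480626-20484850, reverse strand) encodes ELO3, the catalytic subunit of Elongator. Its reads were 390, 428, 527 and 279 in Col and 433, 501, 396 and 305 in hag1. The peak was after 2 days on SIM in Col, at 30.8 RPKM, and on CIM in hag1, at 30.3 RPKM. Both genotypes were lowest after 2 weeks, at 17.4 and 17.8 RPKM. Over the stages the fitted log2 difference between genotypes was 0.08 (adjusted p = 0.776, edgeR).

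HAC5 (AT3G12980, chr3:4146499-4154895, forward strand) is the p300/CBP-type member with the most reads. They were 550, 774, 758 and 620 in Col and 746, 828, 832 and 635 in hag1. Reads of HAC1 and HAC12 covered at most 7.61 and 11.4% of their models, so read totals do not rank these genes by level. The HAC5 log2 ratio of hag1 to Col was 0.38 in root (0.22 to 0.54). It was 0.20 on CIM (0.05 to 0.34) and 0.32 at 2 days of SIM (0.18 to 0.46). After 2 weeks it was 0.02 (-0.14 to 0.19). The fitted difference over the stages was 0.23 on the log2 scale (SE 0.11), with an edgeR adjusted p of 0.311.

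HAC1 (AT1G79000, chr1:29716350-29724621, reverse strand) acts as a coactivator in jasmonate signalling. It had 110, 147, 156 and 104 reads in the Col libraries and 151, 145, 147 and 121 in hag1. HAC12 (AT1G16710, chr1:5714219-5722614, forward strand), its closest relative here, had 72, 105, 110 and 74 reads in the Col libraries and 103, 104, 89 and 85 in hag1. Both were higher in hag1 root than in Col root, by log2 ratios of 0.40 (0.03 to 0.77) and 0.46 (0.01 to 0.91). With DESeq2 size factors in place of TMM these intervals included 0, at -0.01 to 0.72 for HAC1 and -0.03 to 0.87 for HAC12. The genotype difference over the stages was 0.20 for HAC1 (adjusted p = 0.476) and 0.15 for HAC12 (adjusted p = 0.656) by edgeR.

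HAF1 (AT1G32750, chr1:11846247-11856765, reverse strand) encodes TAF1, the largest subunit of the general transcription factor TFIID. Its reads were 862, 2048, 1830 and 1321 in Col and 1358, 1854, 1638 and 1476 in hag1. The Col root library stood lowest, at 18.5 RPKM against 30.8 in hag1 root, and the other 3 stages lay between 30.7 and 46.7 RPKM in both genotypes. The log2 ratio of hag1 to Col was 0.60 in root (0.47 to 0.72), -0.04 on CIM (-0.14 to 0.05), 0.03 after 2 days on SIM (-0.07 to 0.12) and 0.15 after 2 weeks (0.04 to 0.26). The summed root markers were lower in the same hag1 root library, at 3428 reads against 7864, and their part in this difference was not tested.

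HAM1 (AT5G64610, chr5:25828160-25830524, reverse strand) and HAM2 (AT5G09740, chr5:3021952-3024756, reverse strand) are MYST enzymes that acetylate histone H4. HAM1 had 348, 690, 705 and 404 reads in the Col libraries and 449, 547, 576 and 468 in hag1. HAM2 had 27, 29, 32 and 36 reads in the Col libraries and 27, 29, 42 and 40 in hag1. HAM1 ranged over the stages from 41.1 to 53.8 RPKM in hag1 and between 30.1 and 63.6 RPKM in Col. HAM2 lay between 2.28 and 3.82 RPKM in all libraries, and its counting intervals for hag1 against Col included 0 at all 4 stages.

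**Figure D3:**
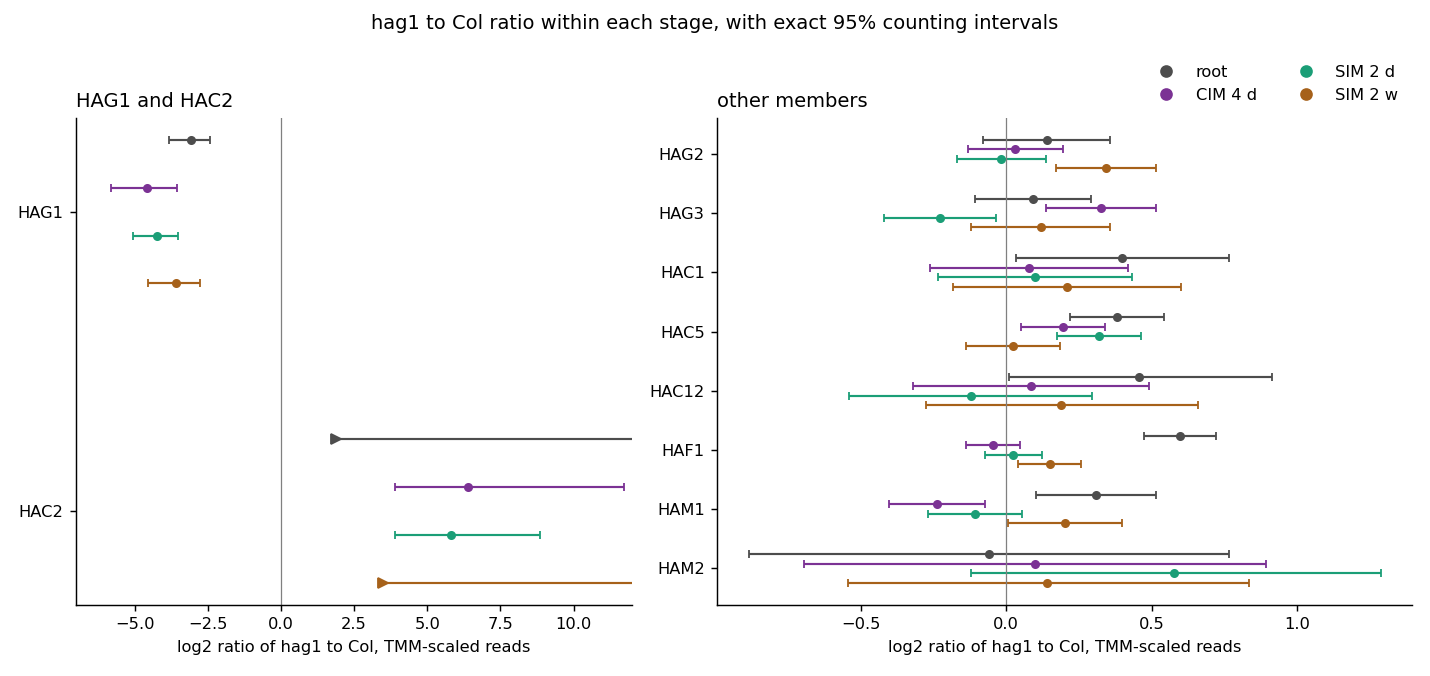
Log2 ratio of hag1 to Col of TMM-scaled reads (horizontal axis) within each stage, with exact 95% counting intervals; triangles are the lower limits of the interval for HAC2 where Col held no read. HAG1 lies from -4.57 to -3.08 and HAC2 at 5.80 and above where it could be computed, while the other 8 members lie within -0.24 to 0.60.

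Within stages a difference of at least 2-fold was counted for loci with at least 50 reads in either library. HAG1 was lower at all 4 stages, and HAC2 was higher on CIM and after 2 days on SIM, with under 50 reads in root and after 2 weeks. Of all such loci, 12.2% in root, 12.6% on CIM, 15.1% after 2 days on SIM and 14.2% after 2 weeks differed by 2-fold or more. The shares lower in hag1 were 7.83, 7.64, 9.61 and 11.6% in stage order, and the shares higher were 4.39, 5.01, 5.48 and 2.6%. Of the other 8 members, none did at any stage, and HAM2 had under 50 reads throughout. HAG1 reached 50 reads only in Col and HAC2 only in hag1, so nothing is read from them against the shares of all loci. The pair of libraries of a stage has no replicate check.

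Whether the genotype difference was different in explants and in root was tested with an added term (edgeR, 2 residual degrees of freedom). None of the 10 members passed, and 0% of the 18710 loci did. At an unadjusted p under 0.05 there was 1 member, HAF1, with a log2 difference of -0.55 (SE 0.21, adjusted p = 0.603). Of all loci 8.29% were under it, and with DESeq2 size factors in edgeR 0 members were. The DESeq2 Wald test called 0 members, and limma on log2 RPKM called 0 with either pseudocount. The log2 values were negative for 9 of 10 members, with a median of -0.31 against -0.07 over all loci. HAG2 (-0.02) and HAG3 (-0.02) turned positive with DESeq2 size factors, and with total reads the median of all loci itself moved to -0.31.

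From root to CIM, HAG2, HAF1 and HAC2 were called higher by edgeR in the fit of both genotypes together, 3 of 10 members. Of all loci tested 29.7% were called and 12.7% rose. HAC2 entered the test only through its hag1 reads, so nothing is read from this count against that share. HAG2 rose by 0.74 on the log2 scale (SE 0.16, adjusted p = 0.0218), with 0.79 in Col and 0.68 in hag1 when each genotype was taken alone. HAF1 rose by 0.73 (SE 0.20, adjusted p = 0.0427), with 1.06 (0.94 to 1.17) in Col and 0.42 (0.31 to 0.52) in hag1. The rise of HAC2 by 2.28 (SE 0.55, adjusted p = 0.0279) rested on hag1, where it was 2.27 (1.48 to 3.15), since Col held 0 and 1 reads.

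HAM1 changed by 0.52 without passing (adjusted p = 0.0874, edgeR), with 0.80 in Col and 0.25 in hag1. HAC5, HAC12, HAG3 and HAC1 had log2 changes from 0.06 to 0.21, HAM2 was at -0.01 and HAG1 at -0.47. Over the same step the 5 root markers went from 7864 to 8 reads in Col, and the markers of replicating cells went from 634 to 2257 in Col and from 800 to 2164 in hag1. Their part in these changes was not tested. Without Col root, Col CIM or hag1 CIM, 0 members were called, and without hag1 root only HAF1 was; without any 1 SIM library HAG2 and HAC2 were called and HAF1 was not. HAC2 was also not called by DESeq2 (adjusted p = 0.0803) or by limma (0.211 and 0.149).

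**Figure D4:**
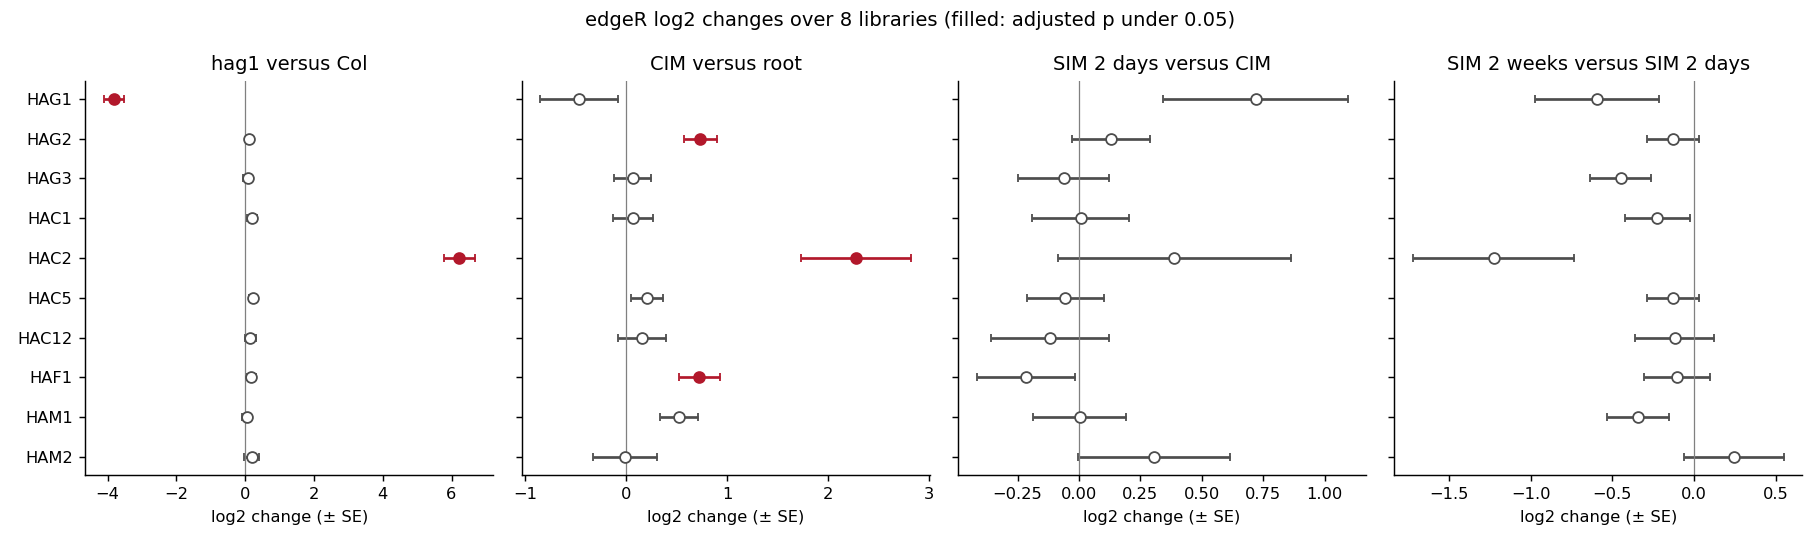
Fitted log2 change (horizontal axis, with bars of 1 SE) of the 10 genes in the 4 comparisons of the edgeR model over 8 libraries; filled red points have an adjusted p under 0.05. HAG1 (-3.82) and HAC2 (6.23) are filled for genotype, and HAG2 (0.74), HAF1 (0.73) and HAC2 (2.28) for CIM versus root.

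From CIM to 2 days on SIM none of the 10 members passed (edgeR), and 0.0695% of all loci did, 0.0641% higher and 0.00534% lower. The largest log2 value was that of HAG1, 0.72 (SE 0.37, adjusted p = 0.581), and the others lay from -0.22 (HAF1) to 0.39 (HAC2). No member had an unadjusted p under 0.05, against 10.6% of all loci, and DESeq2 and limma called 0. From 2 days to 2 weeks on SIM none passed either, where 11.4% of all loci did, 7.09% higher and 4.31% lower. At an unadjusted p under 0.05 there was 1 member, HAC2, at -1.23 (adjusted p = 0.158), against 30.8% of all loci, and DESeq2 and limma called 0. The log2 values of 9 members were negative and that of HAM2 was 0.24, with a median of -0.18 against 0.01 over all loci.

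The fall of HAC2 within hag1 from 2 days to 2 weeks on SIM was -1.08 (-1.63 to -0.55) by counting error. Over the 4 stages of hag1 the callus markers summed to 341, 26129, 1650 and 88 reads and the markers of replicating cells to 800, 2164, 2188 and 2125. HAC2, at 16, 79, 98 and 43 reads, was lowest in root. In Col the callus markers summed to 299, 24420, 7998 and 47 reads, while HAC2 had at most 2. The part of the cell types in this pattern was not tested.

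A further pair of acetyltransferase loci outside the set was looked up for comparison. HAC4 (AT1G55970), closest to HAC5 at 73.4% identity, had 106, 175, 184 and 131 reads in the Col libraries and 135, 139, 117 and 80 in hag1. Its log2 ratio of hag1 to Col was -0.47 (-0.82 to -0.13) after 2 days on SIM and -0.72 (-1.14 to -0.31) after 2 weeks, and the fitted difference over the stages was -0.28 (adjusted p = 0.475, edgeR). HAF2 (AT3G19040), the other TAF1 gene, had 2 to 12 reads in every library.

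Of 22 loci for homologues of subunits of the SAGA complex and its TAF and deubiquitinating modules, 19 could be tested. None was called for genotype by edgeR, with a median log2 difference of 0.02 and 1 locus, TAF9 at 0.33 (adjusted p = 0.236), at an unadjusted p under 0.05. Of all loci 20.6% were under that p. DESeq2 and limma called 0 as well. ADA2B, the adaptor that binds GCN5, had 8, 10, 22 and 12 reads in the Col libraries and 12, 17, 14 and 11 in hag1, and a fitted difference of 0.17 (adjusted p = 0.814). From root to CIM 2 of the 19 rose, the histone-fold subunits TAF9 (1.07, adjusted p = 0.0112) and TAF12B (0.93, adjusted p = 0.0458), and none fell. Of all loci 12.7% rose in this comparison and 17% fell. TAF12B was not called with DESeq2 size factors, by DESeq2, or by limma with a pseudocount of 0.1 RPKM. The median of the 19 was 0.32 against 0.01 over all loci.

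Of 16 histone deacetylase loci, which remove the mark, 13 could be tested. None was called for genotype by edgeR, DESeq2 or limma. The 1 locus at an unadjusted p under 0.05, against 20.6% of all loci, and named after its values were seen, was HDA18, with 2, 15, 4 and 35 reads in the Col libraries and 6, 42, 57 and 55 in hag1 (log2 1.77, adjusted p = 0.166). From root to CIM, where 12.7% of all loci rose and 17% fell, 4 of the 13 rose and none fell: the plant-specific HD2B (1.00, adjusted p = 0.0106) and HD2C (0.77, adjusted p = 0.0134), HDA5 (1.28, adjusted p = 0.0373) and the sirtuin SRT1 (1.18, adjusted p = 0.0219). By DESeq2, HDA18 was called in place of HDA5, and limma with a pseudocount of 0.1 RPKM did not call HDA5. The median of the 13 was 0.37.

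The loci next to HAG1 and HAC2 were examined, 3 on each side. Next to HAC2, AT1G67210 upstream had 3, 5, 9 and 5 reads in the Col libraries and 1, 2, 4 and 5 in hag1, too few to test. LINC1, which encodes a nuclear lamina protein and lies downstream on the opposite strand, had 1702, 2993, 3612 and 1672 reads in the Col libraries and 2308, 2110, 2167 and 1580 in hag1. Its fitted difference was -0.17 (adjusted p = 0.636, edgeR). Its log2 ratio of hag1 to Col was 0.38 in root, -0.41 on CIM and -0.55 after 2 days on SIM. After 2 weeks on SIM, LINC1 had 1672 reads in Col and 1580 in hag1, while HAC2 had 0 and 43. A relation between HAC2 and LINC1 was not tested. Whether reads were counted by strand is not given in the sources used here.

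Next to HAG1, DJ1F, the upstream neighbour on the same strand, had 235, 4, 3 and 232 reads in the Col libraries and 111, 4, 7 and 20 in hag1. Its log2 ratio of hag1 to Col was -1.14 (-1.48 to -0.81) in root and -3.55 (-4.28 to -2.89) after 2 weeks on SIM. Its fitted difference over the stages was -1.45 (adjusted p = 0.339, edgeR). BZIP25, the downstream neighbour, had 15 to 35 reads in every library and a fitted difference of 0.00 (adjusted p = 0.999). Of the 12 neighbours 8 could be tested, and none was called for genotype.

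**Figure D5:**
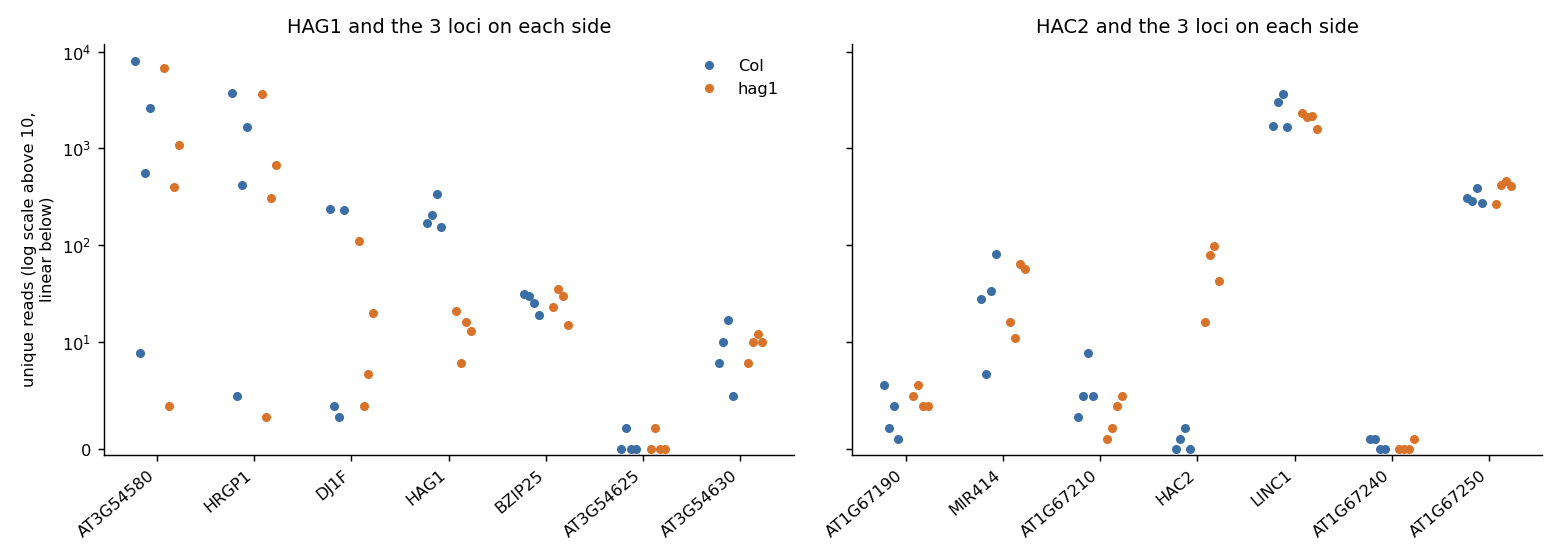
Unique reads (vertical axis, log scale above 10 and linear below) of HAG1, HAC2 and the 3 loci on each side in chromosome order, with 4 blue points for Col and 4 orange points for hag1, stages from left to right. The 4 Col and 4 hag1 points are apart for HAG1 (156 to 340 against 8 to 21 reads) and for HAC2 (0 to 2 against 16 to 98).

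The 5 loci whose log2 levels ran most like those of a gene across the 8 libraries were listed by Pearson's r. For HAC2 they were AT1G64240 (0.992), AT2G41470 (0.990), AT3G28330 (0.988), AT4G07940 (0.988) and AT1G27860 (0.981). AT1G64240 had 0, 1, 1 and 1 reads in the Col libraries and 32, 123, 167 and 61 in hag1. Like HAC2 it was nearly absent from Col and peaked after 2 days on SIM in hag1, a likeness that it was picked for.

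For HAG1 they were FUC1 (0.992), CYCD3;2 (0.979), AT4G25600 (0.978), emb1997 (0.975) and AT2G14830 (0.973). FUC1, a fucosidase gene, had 167, 169, 198 and 149 reads in the Col libraries and 10, 3, 10 and 8 in hag1. CYCD3;2, a D-type cyclin gene, had 285, 384, 489 and 261 reads in the Col libraries and 136, 108, 105 and 83 in hag1. All these r values come from the same 8 libraries and are descriptions, with no test.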

How the data were processed

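The deposited tables list, per transcript model, unique read counts, RPKM and the percent of the model covered by reads (gene coverage), as made by the authors per the file headers. The build was TAIR10, per the submitters' processing notes; for the aligner, counting rules, read length and strand handling the entry is: not given in the sources used here. RPKM was deposited by the authors per transcript model, and locus RPKM was the sum of these values over the models of a locus. The longest model and the library total were used to express the limit of 3 reads in RPKM. Coverage in percent is the authors' value for the best covered model.

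Libraries were grouped by their titles, with 1 library per genotype and stage. For counts of 25686 loci the quasi-likelihood test of edgeR was used (edgeR 4.0.16, R 4.3.3; stage and genotype as terms, TMM scaling, 3 residual degrees of freedom), after a filter on low counts that left 18710 loci, with Benjamini-Hochberg adjustment over all of them and a threshold of 0.05. Alternatives used DESeq2 1.42.0 and limma 3.58.1 on log2(RPKM + pseudocount), with 1 or 0.1 RPKM added, other scalings and filters, other model terms, and left-out libraries. Ratios of 2 libraries have exact 95% binomial intervals, and RPKM exact 95% Poisson intervals; these and the limit of 3 reads for a count of 0 cover counting error only. The scripts were tested on simulated data.

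Coding sequences and start windows came from the TAIR10.1 reference; sequences were aligned with MAFFT 7.526. The rule for named genes took all 10 members, HAC4 and HAF2, the 3 loci on each side of HAG1 and HAC2, the 5 loci most like each of them, every called SAGA or deacetylase locus, and ADA2B. The members, the gene lists and the tests were chosen with earlier results of these data known.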

Additional observations from a re-analysis of the deposited data

Results flagged for a closer look

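For 3 of the members the exact 95% counting intervals of the same contrast lay on opposite sides of 0 in different stages or genotypes. Each value compares single libraries, and the difference between the values was not tested.

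HAG3 was higher in hag1 than in Col on CIM (log2 ratio 0.33) and lower after 2 days on SIM (-0.23). Seen along the same step within each genotype, it was higher after 2 days on SIM than on CIM in Col (0.21) and lower in hag1 (-0.34). HAC5 was higher after 2 weeks on SIM than in root in Col (0.20) and lower in hag1 (-0.16). HAM1 was higher in hag1 than in Col in root (0.31) and after 2 weeks on SIM (0.20), and lower on CIM (-0.24).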

How the results depend on the processing

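The labels carry no replicate numbers to pair by. Libraries were paired by stage only, through the stage term of the edgeR model, which matches the Col and hag1 libraries of each stage. Of 850 recomputed log2 changes of the members, 758 kept their direction and their side of the threshold, 45 lost their call and 47 turned sign; the turned ones had main values of at most 0.87 in size and came from 8 genes. For values named below, the cause of a change was not tested.

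Of the 2 members called for genotype, 0 were called by limma on log2(RPKM + 1), 1 by limma on log2(RPKM + 0.1), 0 with no term for stage, and 0 without both libraries of any 1 stage, where fewer samples remain. HAG1 was then at -2.95 by limma with 1 added and -3.81 with no stage term. Without both root libraries it was at -4.11, without CIM -3.61, without 2 days on SIM -3.70 and without 2 weeks -3.90. HAC2 was at 1.43 and 3.82 by limma and 6.16 with no stage term. It was at 6.17, 6.24, 6.72 and 5.98 without the same stages in order. Leaving out 1 library at a time gave 0 to 2 members called, -4.12 to -3.61 for HAG1 and 5.98 to 6.74 for HAC2. From root to CIM, 1 of the 3 calls was left with no term for genotype, and 0 to 2 when 1 library was left out.

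HAM1 for genotype turned to -0.055 without both root libraries and -0.015 without both libraries of 2 weeks on SIM, and spanned -0.066 to 0.14 when 1 library was left out; HAG3 spanned -0.011 to 0.19. From root to CIM, HAM2 turned to 0.15 with total reads and to 0.10 and 0.14 by limma, and spanned -0.17 to 0.15 when 1 library was left out. In the same way HAG3 spanned -0.082 to 0.22, HAC1 -0.073 to 0.20 and HAC12 -0.043 to 0.37. From CIM to 2 days on SIM, HAM1 was at -0.00066 with a filter of 1 CPM in 4 libraries and spanned -0.17 to 0.20. HAG3 spanned -0.26 to 0.14, HAC1 -0.065 to 0.087, HAC5 -0.11 to 0.0078 and HAC12 -0.30 to 0.058. From 2 days to 2 weeks HAG2 spanned -0.30 to 0.012, HAC12 -0.30 to 0.051 and HAM2 -0.018 to 0.51.

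For the difference of the genotype effect between explants and root, HAG2 and HAG3 were at 0.017 and 0.018 with DESeq2 size factors and by the DESeq2 test. They were at 0.0053 and 0.0060 with no filter, 0.0082 and 0.0091 with the 1 CPM filter, and 0.0068 and 0.0076 over loci with 1 listed isoform. HAC2 was at 0.094 by DESeq2 and at 1.08 and 1.55 by limma. Leaving out 1 library gave -0.17 to 0.072 for HAG2 and -0.20 to 0.16 for HAG3, and could not be fitted without either root library.

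The 81 loci called for genotype became 14 with total reads, 222 with no filter, 1228 by DESeq2, 2 and 14 by limma, 13 over loci with 1 isoform and 0 with no stage term. From CIM to 2 days on SIM the 13 became 6 with total reads, 72 with no filter, 534 by DESeq2, 46 by limma with 0.1 added and 0 with no genotype term. The count of 0 for the explant term became 39 by DESeq2. From 2 days to 2 weeks the 2133 became 1044 with no genotype term. Leaving out 1 library gave 0 to 34, 0 to 27 and 147 to 2041 in these comparisons, and 1906 to 5135 of 5562 from root to CIM. Total reads moved the median of all loci to 0.17 from root to CIM and to -0.19 from 2 days to 2 weeks. With total reads the split of calls became 2810 higher and 2638 lower, against 2384 and 3178, from root to CIM. From 2 days to 2 weeks it became 864 and 968, against 1326 and 807. Within stages, HAF1 moved with total reads to 0.74 in root, -0.16 on CIM and -0.08 after 2 days on SIM. Depth limits HAC2 in Col, HAM2 and HAG1 in hag1, which had under 50 reads.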
